A study of Mus musculus with 3 samples.

Results

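The Peg3 and Gnas domains are imprinted stretches of the mouse genome, in which YY1 binding was called by ChIP-seq in cardiac progenitor cells. Members were chosen by position alone: all YY1 peak intervals of either ChIP list in a 250 kb window on chromosome 7 from 6550000 to 6800000 (the Peg3, Usp29 and Zim1 domain) and in a 250 kb window on chromosome 2 from 174000000 to 174250000 (the Gnas and Nespas domain), both in the mm9 build. They hold 41 of the 118800 intervals of the 2 lists together. The Peg3 window holds 0 of 3691 intervals of replicate 1 and 19 of 115109 of replicate 2, and the Gnas window holds 2 and 20.

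YY1 was immunoprecipitated with anti-YY1 (Santa Cruz) from C57BL/6 mouse embryonic stem cells that carry an Nkx2.5-driven GFP transgene and had been differentiated as embryoid bodies for 6 days. The stem cells had been kept on a feeder layer of mouse embryonic fibroblasts before differentiation. The GFP-positive cells were sorted, so the cell type rests on activity of that 1 driver, and no expression values bear on it here. The 2 ChIP samples come from independent sorts, carry the same labels apart from the replicate number, and received no other treatment. The input sample, from the same cells without antibody, was not analysed here. Read depth is unknown for both samples, and the lists differ widely in size, so each list was described on its own.

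Imprinted genes are expressed mainly from the copy inherited from 1 parent. Peg3, a large zinc-finger protein, and its neighbour Usp29, a ubiquitin-specific protease, are expressed from the paternal copy, while Zim1, another zinc-finger gene beside them, is expressed from the maternal copy. Gnas encodes the stimulatory G-protein alpha subunit, which couples hormone receptors to adenylyl cyclase, and Nespas is a paternally expressed antisense RNA of the same locus. YY1 is a zinc-finger factor whose DNA sites carry the letters CCAT, and tandem YY1 sites are known from the Peg3 control region. ChIP intervals do not tell the parental copies apart.

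The gene table used here belongs to GRCm38, so genes are given by order only and the mm9 intervals were assigned to no exon, intron, UTR or promoter. In that table all 5 genes were matched, Nespas under the symbol Gnasas1. Zim2, Zim1, Peg3, Peg3os (also called Apeg3) and Usp29 follow each other on chromosome 7. Mir296, Mir298, Gnasas1 and Gnas follow each other on chromosome 2, and Nesp is listed as a synonym of Gnas.

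Promoters of the leading gene of each domain are shown for their YY1 core letters. Whether the Peg3 window takes in any of the known tandem YY1 sites of the control region was not analysed here. RefSeq promoter windows (250 bases before to 50 after a start, build GRCm38.p6) were at hand for 4 of the 5 genes, 7 windows in all. That of Peg3 and 2 of the 4 of Gnas are printed on the strand of the gene. Left out are the third Gnas window, which overlaps the second, and the fourth, which holds no CCAT. The printed Gnas windows thus do not stand for all 4. Capitals mark the YY1 core letters CCAT on either strand (ATGG where it is on the opposite one). Their coordinates belong to GRCm38.p6 and cannot be set against the mm9 intervals.
Peg3 promoter, minus strand, chr7:6730370-6730669: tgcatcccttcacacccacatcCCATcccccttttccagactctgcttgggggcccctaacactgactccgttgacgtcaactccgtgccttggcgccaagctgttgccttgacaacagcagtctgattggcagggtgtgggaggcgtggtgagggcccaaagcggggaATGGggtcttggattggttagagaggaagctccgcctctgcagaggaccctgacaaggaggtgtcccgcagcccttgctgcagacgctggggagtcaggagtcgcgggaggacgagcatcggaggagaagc
Gnas promoter 1, plus strand, chr2:174284070-174284369: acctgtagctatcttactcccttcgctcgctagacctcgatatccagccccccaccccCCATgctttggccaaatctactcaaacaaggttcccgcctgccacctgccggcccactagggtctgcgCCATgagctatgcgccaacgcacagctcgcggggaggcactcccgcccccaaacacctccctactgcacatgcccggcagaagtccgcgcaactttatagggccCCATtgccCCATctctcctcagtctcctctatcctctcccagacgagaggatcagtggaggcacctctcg
Gnas promoter 2, plus strand, chr2:174327499-174327798: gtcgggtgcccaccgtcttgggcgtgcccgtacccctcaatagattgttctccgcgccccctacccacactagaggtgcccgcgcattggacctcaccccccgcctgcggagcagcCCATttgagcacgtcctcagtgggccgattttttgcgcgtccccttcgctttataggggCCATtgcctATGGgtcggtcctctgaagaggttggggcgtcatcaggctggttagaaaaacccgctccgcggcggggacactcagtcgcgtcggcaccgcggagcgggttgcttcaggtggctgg

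The Peg3 and Usp29 promoter windows lie on opposite strands and share 263 bases, so the Peg3 letters above, read in reverse complement, are also most of the Usp29 window. The core CCAT, searched on both strands, occurred at 2 places in the Peg3 window, 1 in that of Usp29 and 1 in that of Zim1. It occurred at 4, 3, 3 and 0 places in the 4 Gnas windows, of which the second and the third share 281 bases. Of 32851 promoter windows of the same length, 83.1% held CCAT at least once, with a median of 2 places. The longer form GCCAT, which contains the core, was in none of the windows of Peg3, Usp29 and Zim1, was at 1 place in each of 3 Gnas windows (the same place in the second and the third), and was in 40.5% of all windows. The form GCCATNTT, which contains both, was in none of the 7 windows and in 6.05% of all. A match is a description of letters, and its absence says only that these letters are not in the window.

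In the Gnas window the 2 samples met at 1 place. Replicate 1 had 2 intervals there, from 174130057 to 174130194 (138 bp) and from 174130323 to 174130421 (99 bp). Both lay within 1 interval of replicate 2, from 174130034 to 174130472 (439 bp). The replicate 1 intervals were 128 bp apart, with midpoints 246.5 bp from each other. The first began 23 bp inside the lower edge of the replicate 2 interval, and the second ended 51 bp short of its upper edge. Together they covered 237 bp, or 54% of it.

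**Figure D1:**
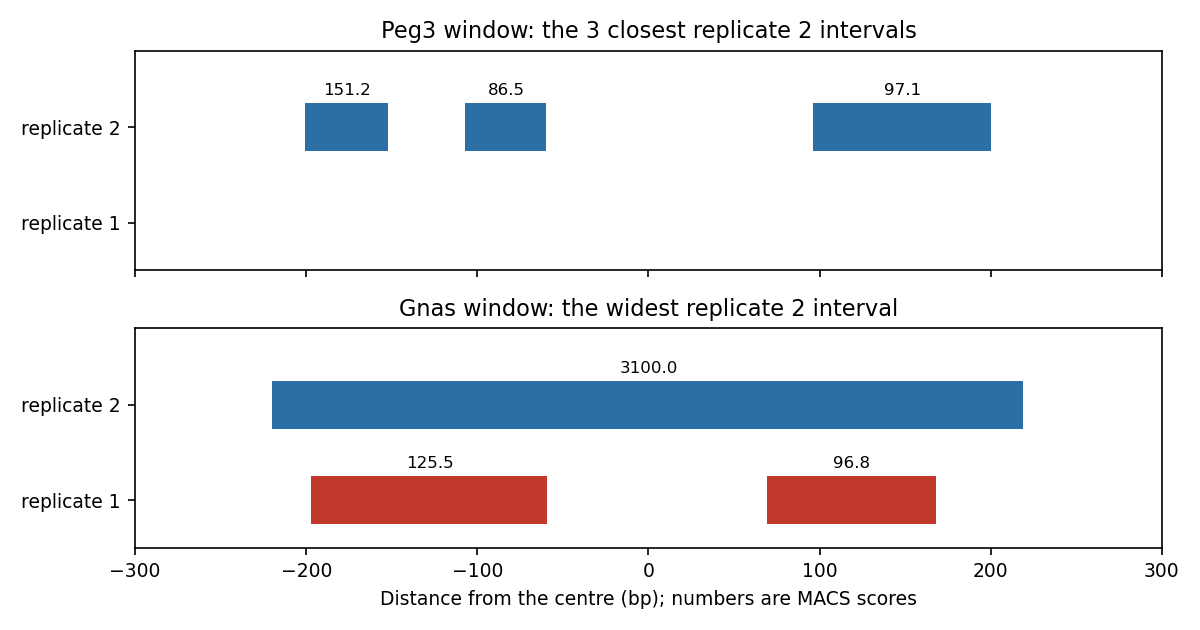
Intervals of both samples at 2 places, drawn to scale by distance from the centre (bp). In the Gnas window the 2 replicate 1 intervals (red) fall inside the 439 bp replicate 2 interval (blue), and in the Peg3 window 3 replicate 2 intervals lie within 401 bp with no replicate 1 interval. Printed above each bar is its MACS score, which is not compared between samples.

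The replicate 2 interval at Gnas was among the strongest of its list. MACS, the peak caller, gave each interval a score, the authors' own value, which ranks intervals within a list. The Gnas interval scored 3100, a score that 102 replicate 2 intervals had and that only 6 exceeded, so it is not separated from the others of that score. Scores of 3100 or more made up 0.0938% of the list. On chromosome 2, where 6 of 713 consecutive 250 kb windows (0.842%) held such an interval, 6 intervals had that score and widths of 380 to 690 bp. Replicate 1 intervals met 5 of these 6, and 2 of the 6, that at Gnas and 1 other, met more than 1.

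The replicate 1 intervals at Gnas ranked high in their list without being among its strongest. The first scored 125.5, a score that 10.8% of the replicate 1 list reached, and the second scored 96.8, reached by 24.1%. The median of that list was 77.3. On chromosome 2, 22 of 248 replicate 1 intervals scored at least as high as the first and 46 at least as high as the second. Of the 102 replicate 2 intervals that scored 3100, 78 met a replicate 1 interval. In 30 of these 78, that at Gnas included, the highest replicate 1 score was 125.5 or less, and the median over the 78 was 188.8. The Gnas site thus lay below the middle of these 78 in replicate 1. The rest of the 102 met no replicate 1 interval and are not part of that ranking.

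Close pairs such as the one at Gnas were uncommon in replicate 1. Gaps of 128 bp or less separated 113 of 3664 neighbouring intervals (3.08%). In the whole series 36 replicate 2 intervals met 2 or more replicate 1 intervals, which is 2.48% of the replicate 2 intervals that met any, and 3 of them were on chromosome 2. Whether the pair at Gnas marks 1 bound stretch or more cannot be told from the intervals. A width of 439 bp or more was reached by 492 replicate 2 intervals (0.427%), 31 of them on chromosome 2.

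The 2 replicate 1 intervals at Gnas, both shared, compare with 44% shared on chromosome 2 (109 of 248) and 40.6% in the whole list. With n = 2 the 95% exact binomial interval of their share is 15.8 to 100%, which covers counting error only, and the 2 meet the same replicate 2 interval. Of the 20 replicate 2 intervals 1 was shared, or 5% (0.127 to 24.9%), beside 1.32% on chromosome 2. A 250 kb window of chromosome 2 held at least 2 shared replicate 1 intervals in 1.4% of cases (10 of 713) and at least 1 in 13.5%. The next shared place was 1.1 Mb from the window at lower coordinates, and 3.98 Mb from it at higher ones. The usual distance between shared places on chromosome 2 was not counted, so these distances are not read as isolation.

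The other 19 replicate 2 intervals at Gnas were narrow calls of ordinary score, spread over the window in small groups. Their scores ran from 50.1 to 368.2 with a median of 139.6, near the 129 of the list, and their widths from 45 to 121 bp with a median of 54 bp. The shared interval alone made up 27.1% of the base pairs covered. Its score of 3100 was the highest in the window, and 368.2 was the next. As the formula of the score is unknown, the distance between these scores is not read as a difference in strength. None of these 19 met a replicate 1 interval.

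At the lower end of the Gnas window a first group of 4 intervals lay between 174007943 and 174018496. They scored 220.5, 64.5, 56 and 368.2 in order of position, and the last, from 174018427 to 174018496 (70 bp), was the strongest after the shared interval. A second group of 4 followed 26.6 kb further on, from 174045109 to 174051727, with scores of 147.3, 50.1, 196.9 and 196.9. The score of 50.1 (174047693 to 174047748) is nearly the lowest of the whole list. A lone interval from 174087671 to 174087723 scored 152.6 and was separated by 35.9 kb on one side and 42.3 kb, the longest gap of the window, on the other.

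On the higher side the shared interval had company. The intervals from 174134035 to 174134114 (80 bp, score 294.7) and from 174137014 to 174137119 (106 bp, score 73.2) followed it, the first after a gap of 3.56 kb. Those from 174142947 to 174143019 and from 174144264 to 174144310 scored 169.4 and 182.5. These 4 were all the intervals within 20 kb of it, and all lay on the side of higher coordinates. After a gap of 37.5 kb, 6 more intervals were spread from 174181803 to 174229652 with scores of 139.6, 54.1, 129, 101.5, 115.8 and 118.9. The second of them, from 174193571 to 174193691, was the widest of the 19 at 121 bp and one of the weakest.

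In the Peg3 window only replicate 2 had intervals, and none stood out as the one at Gnas did. Their scores ran from 63.4 to 344 with a median of 133.2, and 10 of the 19 were above the list's median of 129. Widths ran from 43 to 151 bp with a median of 57 bp, and 9 of the 19 were wider than the list's median of 61 bp. None was shared, beside 1.32% of replicate 2 intervals on chromosome 7. The 95% exact binomial interval for 0 of 19 reaches 17.6% and covers counting error only. The 2 windows differed in this respect by 1 place only, and that difference was not tested.

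**Figure D2:**
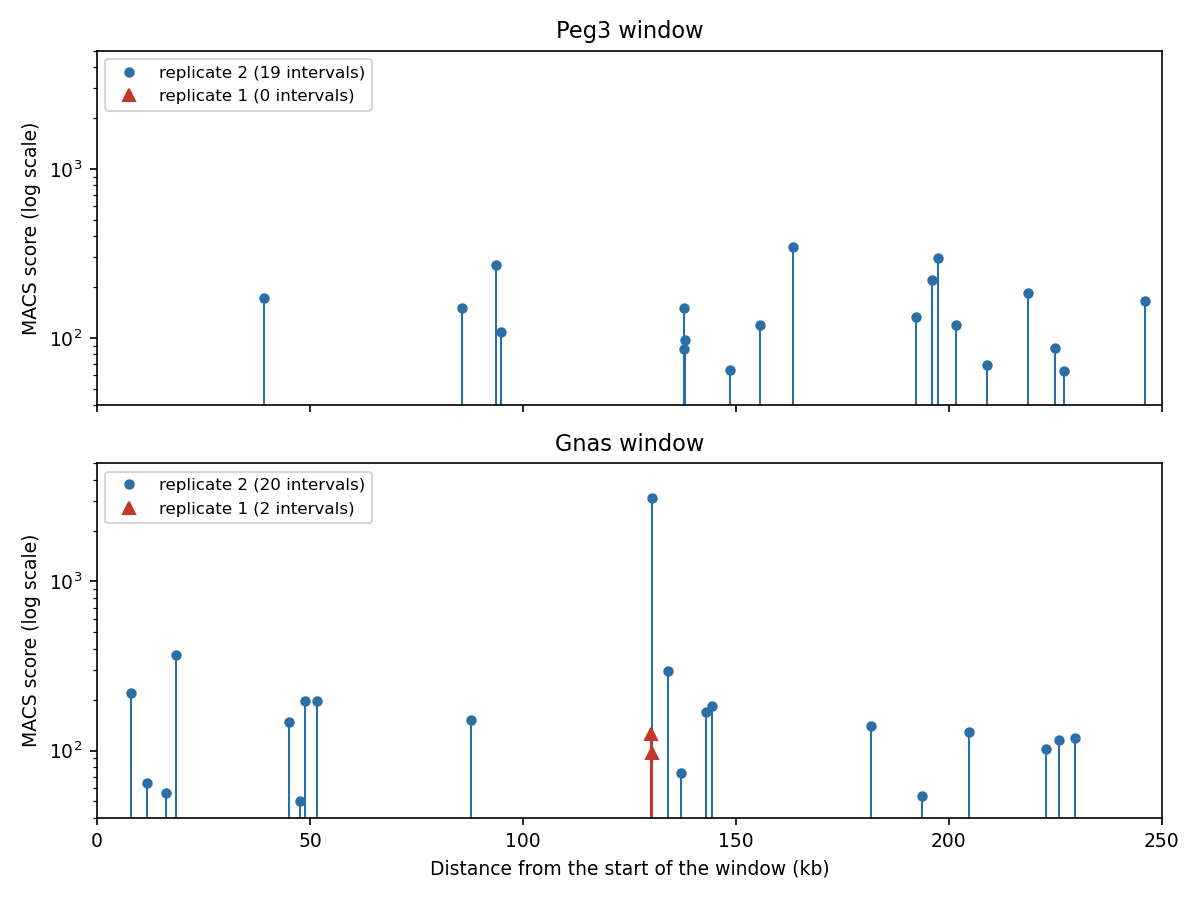
MACS score (log scale) of every interval against its distance from the start of the window (kb). Replicate 2 intervals (blue points) reach 344 in the Peg3 window and 3100 in the Gnas window, where the 2 replicate 1 intervals (red triangles) stand at the same place; score levels are not compared between replicates.

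Along the Peg3 window the intervals became denser towards higher coordinates, with 1, 3, 4, 5 and 6 in its consecutive 50 kb stretches. The first, from 6589196 to 6589247, scored 171.7 and was 46.5 kb from the next, the longest gap of the window. The next, from 6635756 to 6635809, scored 151.2. The widest of the window, from 6643677 to 6643827 (151 bp), scored 271.4, a score that no other interval of the list had, and a 93 bp interval of score 109 followed 0.867 kb further on.

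The tightest arrangement in the Peg3 window was a run of 3 intervals, from 6687713 to 6687761, 6687807 to 6687853 and 6688010 to 6688113. Their widths were 49, 47 and 104 bp, with gaps of 45 and 156 bp, so that all 3 lay within 401 bp. They were calls of low to middling score, with values of 151.2, 86.5 and 97.1 that 40.4%, 80.1% and 75% of the replicate 2 list reached. The run was singled out after its values were seen. In the whole list 257 of 115043 runs of 3 neighbouring intervals (0.223%) lay within 401 bp, 18 of them on chromosome 7. That share is per run, whereas this run is the tightest of its window. Per window, close spacing was less unusual, over 480 windows of chromosome 7 with at least 5 replicate 2 intervals. At least 2 gaps under 500 bp, as at Peg3, were found in 17.7% of them. A shortest gap of 45 bp or less was found in 15.6%. In the Gnas window the closest 3 intervals spanned 3.68 kb. The distance of the run from the known tandem YY1 sites of the Peg3 control region was not analysed here, for want of an mm9 sequence.

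Beyond the run, intervals from 6698646 to 6698715 and from 6705654 to 6705705 scored 64.5 and 118.9. The strongest of the window followed at 6713362 to 6713413 (52 bp), with a score of 344 that 7.39% of the list reached. After 28.7 kb a group of 4 lay between 6742148 and 6751790 with scores of 133.2, 220.5, 296.4 and 118.9, the second and the third of them 1.48 kb apart. The last 5 intervals, from 6758908 to 6796120, scored 69, 185.5, 86.7, 63.4 and 164.9.

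Most scores in both windows recurred elsewhere in the replicate 2 list. All 20 replicate 2 scores at Gnas and 18 of the 19 at Peg3 were held by at least 1 other interval of the list. The score 118.91 occurred at 2 places in the Peg3 window, 1 in the Gnas window and 3937 in the list. The share of tied scores over the whole list was not counted, so these ties are not read as a trait of the 2 domains.

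By number, both windows were well filled in replicate 2. All consecutive 250 kb windows of the same chromosome, on a grid through the named window, took the place of random draws. At Peg3, 19 intervals compared with a median of 10 over 597 windows of chromosome 7 (interquartile range 6 to 14, highest 27), and 64 windows (10.7%) held at least as many. At Gnas, 20 intervals compared with a median of 10 over 713 windows of chromosome 2 (7 to 14, highest 36), and 51 windows (7.15%) held at least as many. Both counts were above the upper quartile of their chromosome and below its highest window. Among the 25% of intervals with the highest scores the Peg3 window was less unusual, since 28.8% of the windows held at least as many as its 4.

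**Figure D3:**
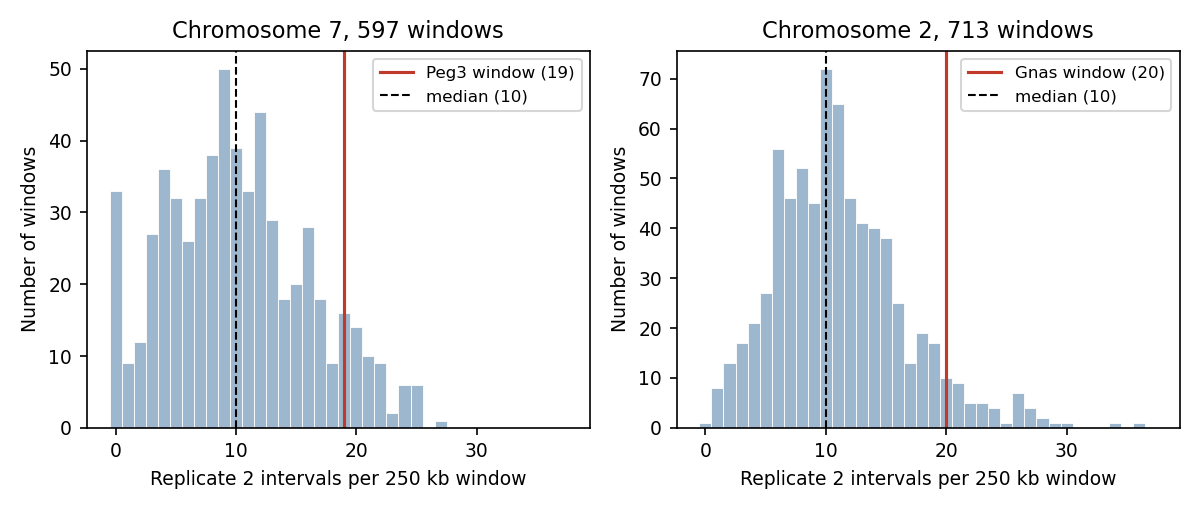
Number of 250 kb windows (vertical axis) by their count of replicate 2 intervals (horizontal axis) on chromosomes 7 and 2. The red lines mark the Peg3 window (19) and the Gnas window (20), to the right of the median of 10 (dashed) on both chromosomes.

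In replicate 1 the Peg3 window held none, as did most windows of its chromosome, and the Gnas window held 2. No replicate 1 interval was present in 453 of the 597 windows of chromosome 7 (75.9%). Among the 64 windows at least as full as Peg3 in replicate 2, 44 (68.8%) also had none. On chromosome 2, 45 of 713 windows (6.31%) held 2 or more replicate 1 intervals, and 6 (0.842%) held at least as many as Gnas in both lists. This place of the Gnas window rests on counting its 2 replicate 1 intervals separately: counted as 1, since they are closer than 500 bp, 27.2% of windows held at least as many.

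The median width and the median gap of replicate 2 intervals were below those of the middle window of the chromosome in both domains, and the widest interval at Gnas was wide for a window of chromosome 2. Over windows with at least 5 replicate 2 intervals, the median width per window had a median of 60.5 bp on chromosome 7 and 61 bp on chromosome 2, beside 57 bp at Peg3 and 54.5 bp at Gnas. A median as narrow or narrower was found in 30% of these windows on chromosome 7 and in 14.1% on chromosome 2. The widest interval of the window was 151 bp at Peg3, reached in 42.5% of windows, and 439 bp at Gnas, reached in 4.59%. The median gap between neighbours was 7.03 kb at Peg3, beside a median of 12.5 kb over 480 windows, and 15.2% of these had one as short or shorter. At Gnas it was 3.71 kb, beside 12.7 kb over 653 windows, and 2.45% had one as short or shorter. Fuller windows have shorter gaps by construction. With only the 50% of the list with the highest scores, the median gap was 25.6 kb at Peg3 and 9.63 kb at Gnas. The intervals covered 1308 bp at Peg3 (0.523% of the window) and 1622 bp at Gnas (0.649%), beside medians of 809 and 803 bp. At least as much was covered in 20% of these windows on chromosome 7 and 7.04% on chromosome 2. Fuller windows also tend to cover more base pairs, and to hold a wider widest interval, by construction.

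The counts did not stand alone in their surroundings. The windows on either side of Peg3 held 24 and 25 replicate 2 intervals, more than its own 19, whereas those further out held 1 to 21. The 10 windows at lower coordinates held 111 in all and the 10 at higher coordinates 71. At Gnas the adjoining windows held 13 and 17. The 10 windows at lower coordinates held 208, between 13 and 27 each, and the 10 at higher coordinates 55, between 1 and 22 each. The Gnas window thus lay near the end of a stretch of high counts.

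**Figure D4:**
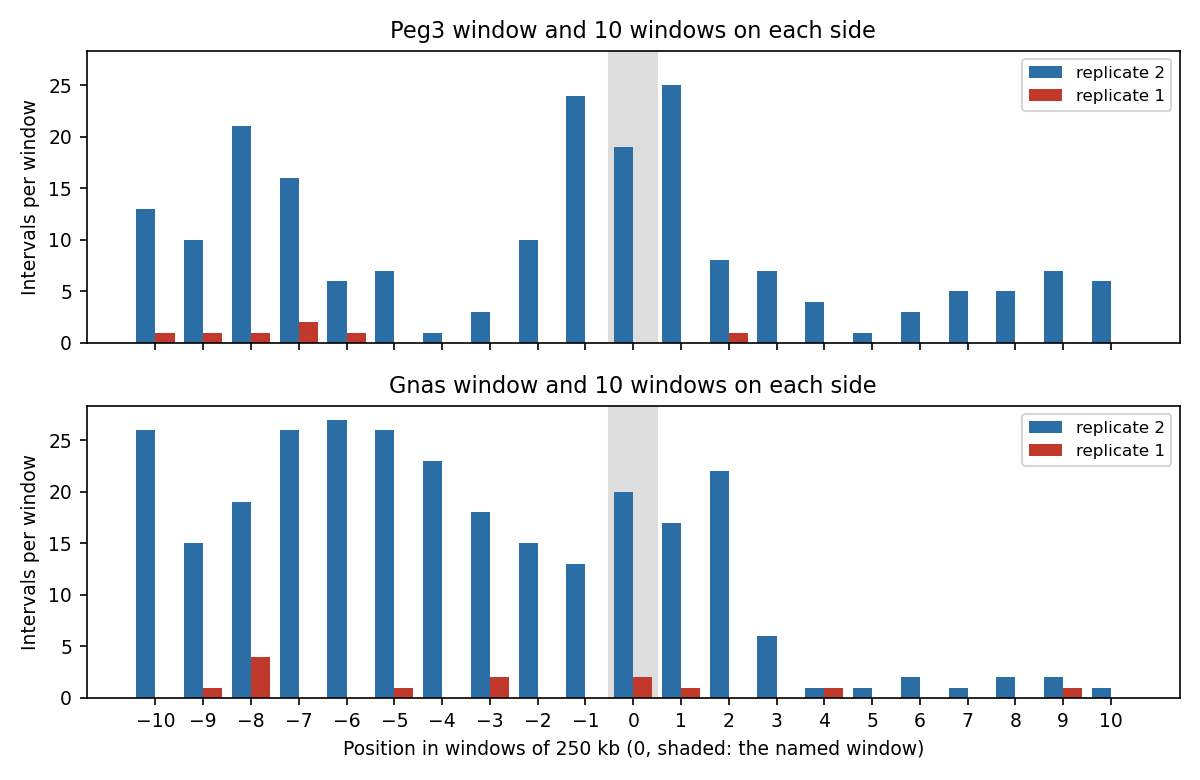
Intervals per 250 kb window (vertical axis) in the named windows (shaded, position 0) and 10 windows on each side, for replicate 2 (blue) and replicate 1 (red). The Peg3 window stands between 2 fuller ones (24 and 25), and the counts at higher coordinates than Gnas drop from 22 to between 1 and 6.

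The nearest replicate 1 intervals to the Peg3 window lay at unlike distances on its 2 sides. At lower coordinates the nearest, from 5155405 to 5155508 (104 bp, score 66.9), was 1.39 Mb from the window and unshared. At higher coordinates the nearest, from 7250540 to 7250706 (167 bp, score 65.2), was 0.451 Mb away and met a 741 bp replicate 2 interval that scored 3100. The stretch between these, 2.1 Mb, was as long as or shorter than 16 of the 208 gaps between replicate 1 intervals on chromosome 7 (7.69%, itself included), whose median was 359 kb. A long gap takes up more of the chromosome than a short one. The share of the chromosome in gaps this long is therefore higher than 7.69%, and it was not counted. For Gnas the nearest were from 173462509 to 173462621 (score 84.8), 537.4 kb away, and from 174341612 to 174341653 (score 106), 91.6 kb away, and both were unshared. In replicate 2 the nearest intervals outside the windows were 29.7 and 6.63 kb from the edges of the Peg3 window (6520236 to 6520294 and 6806628 to 6806715) and 20.6 and 20.1 kb from those of the Gnas window (173979373 to 173979431 and 174270098 to 174270203).

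An interval missing from a list cannot be read as absence of YY1, since read depth is unknown and the caller's threshold sets what is listed. Mappability, copy number and signal in the input were not tested at either domain.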

How the data were processed

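The deposited files are 1 list of intervals for each of the 2 YY1 ChIP samples. Per the file headers, the authors called them with MACS in Galaxy. The MACS score was used as deposited, to describe and rank intervals within their own list. The formula of that score, the caller's version, the aligner and the part played by the input were all not given in the sources used here. Per the submitters' processing notes, positions are on mm9. They are printed counted from 1, taking the files to follow the BED convention.

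An interval belonged to a window, or was shared with the other list, at an overlap of 1 bp or more. Windows were ranked among all consecutive 250 kb windows that fit between the outermost intervals of the chromosome. The 2 ChIP samples form 1 group, so no test across samples was possible and no p-values are given. All intervals of a window were named where it held at most 20. The members and lists were chosen with earlier results of these data known. Window counts, merging and overlap were tested on simulated intervals. The tools were matplotlib 3.10.9, pandas 2.3.3, SciPy 1.17.1 and NumPy 2.4.6 under Python 3.11.15.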

Additional observations from a re-analysis of the deposited data

How the results depend on the processing

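Of 64 values of 14 results under alternatives, 51 stayed within limits set for each kind: counts within 1.5 times, percentages and medians within a 95% binomial interval. That interval is wide for the median gap at Gnas (2.89 to 18.2 kb), so the 51 include gaps there that moved by over 1.5 times. The 51 also include the replicate 1 and shared values of the Peg3 window. With no replicate 1 interval there, its counts could only stay at 0 and its percent of windows at 100%. Those values were fixed in advance and do not bear on stability. With the 50% of each list of highest score, replicate 2 held 10 intervals at Peg3 and 11 at Gnas. The median gap was then 25.6 kb at Peg3 (7.03 kb as reported) and 9.63 kb at Gnas (3.71 kb), and 1.82% of windows had as many replicate 1 intervals as Gnas. With the highest 25% the counts were 4 and 6, the gaps 32.6 kb at Peg3 and 10.4 kb at Gnas, and the percent of windows with as many was 28.8% for replicate 2 at Peg3 and 0.14% for replicate 1 at Gnas, which is the Gnas window alone. The 0.14% counts the 2 replicate 1 intervals at Gnas separately, and the second, at 24.1% of the list, only just passed the 25% cut. Fewer intervals by construction lower the counts and widen the gaps. With intervals closer than 500 bp merged, Gnas held 1 replicate 1 interval, which was shared (1), 27.2% of windows held as many, and 5.19% had as many replicate 2 intervals. Other overlap rules, midpoints and other window sets moved no result beyond these limits.

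No paired analysis was possible because the input has no list here and no 2 groups were compared. Leaving out a replicate was not possible for the shared counts, which need both lists; the other values are given per replicate. Read depth is unknown, which limits what an uncalled place means.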
